A study of Rattus norvegicus with 9 samples.

Results

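Matrix proteases and their inhibitors were followed in the hearts of 9 rats, through 61 of the 62 genes taken by symbol from the 5760 genes listed in either of 2 expression tables. The symbols were those of the matrix metalloproteinases (Mmp), their tissue inhibitors (Timp), the ADAM and ADAMTS families, the serpins, the plasminogen activators and the urokinase receptor, the HtrA, Prss and tissue factor pathway inhibitor families, and the proprotein convertases with furin. Cystatins were also sought and none was listed. Of the 61 genes, 51 stood among the 4288 genes of the table that compares Cal with model rats, 25 among the 2458 genes of the table that compares with sham, and 15 in both.

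The rats were Sprague Dawley rats, and RNA was taken from heart tissue, of a region that the sources used here do not give, with 3 rats in each group. Control rats were operated on without tying the coronary artery and are called sham here. Model rats had the left anterior descending coronary artery ligated, which leads to heart failure after infarction, and both these groups were given distilled water. Cal rats had the same ligation and were given calycosin, an isoflavone of Astragalus root, by mouth at 80 mg/kg per day for 28 days. The study measured whether calycosin changes gene expression in the failing heart.

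The column headings of the tables conflict, and this bears on every direction below. In the first table the sample columns headed Model average exactly to the authors' mean column headed Cal, and the sample columns headed Cal average to the mean column headed Model, in 4288 of 4288 genes. In the table with sham, the sample columns are headed Cal and Con, and those headed Cal average to the mean column headed Model in 2458 of 2458 genes. The authors label the comparison in that table Model against Con, which goes with its mean column and not with its sample headings. The study likewise gives 2458 as the number of targets of its heart failure model. The reads of the Cal-headed libraries were identical in the 2 tables in 986 of 986 genes that both list, which makes them the same 3 libraries. The text keeps to the sample headings (Cal-headed, Model-headed and Con-headed), and by the mean columns the Cal-headed libraries would be model hearts and the Model-headed libraries Cal hearts. The mean columns of both tables and the label of the table with sham stand together against the sample headings. What the libraries are was not settled further, and no group was assigned from expression values.

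Values are normalized counts, which are reads per gene divided by 1 size factor per library. Size factors ran from 0.820 to 1.17 in the first table and from 0.9502 to 1.07 in the table with sham. The libraries held 2860826 to 3998471 and 3270460 to 4659882 reads on the listed genes, while total depth is unknown. A gene was called where limma gave an adjusted p under 0.05 and the log2 fold change passed 1 in either direction. The log2 fold changes are on the scale of log2(normalized count + 1), which understates changes of low genes, and a positive value means higher in the Cal-headed libraries. Only genes that passed the adjusted p limit of the original test were listed, so every member had already been selected for a difference and the p-values here are not independent evidence of one. In bulk tissue, fewer cells of a type and less RNA per cell cannot be told apart.

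Matrix metalloproteinases are zinc enzymes that cut collagens and other matrix proteins, and the 4 tissue inhibitors bind and block them. ADAM proteases shed proteins from the cell surface, and ADAMTS proteases are secreted and cut proteoglycans and procollagens. The plasminogen activators Plau and Plat turn plasminogen into plasmin, which digests fibrin and can activate metalloproteinase precursors. After infarction these systems clear the damaged matrix and shape the scar that replaces it.

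Across the 51 genes of the first table, 16 were called higher and 28 called lower in the Cal-headed than in the Model-headed libraries, and 7 passed the adjusted p without reaching the fold limit. Of all 4288 listed genes, 60.1% were called, 28.4% higher and 31.6% lower, and 99.6% passed the adjusted p. Counts of role groups and gene lists below stand beside these shares, and no list was tested against them. The members' median log2 fold change was -1.29, beside -0.52 for all listed genes. All 51 members had groups that did not overlap, as did 98.2% of listed genes. The lower side held the Serpina3 serpins, 7 metalloproteinases, Timp1 and Timp3, and the higher side held Plau, Htra3, Adamts10, Adam19, Mmp11, Mmp15, Timp2 and Timp4. By the authors' mean columns, higher and lower here would change places. The median over all genes depended on scaling and was -0.10 after quantile normalization and -0.23 after median-ratio scaling. Both scalings were computed on the listed genes alone, which had been selected for a difference, so they give no unbiased baseline for a member's change.

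**Figure D1:**
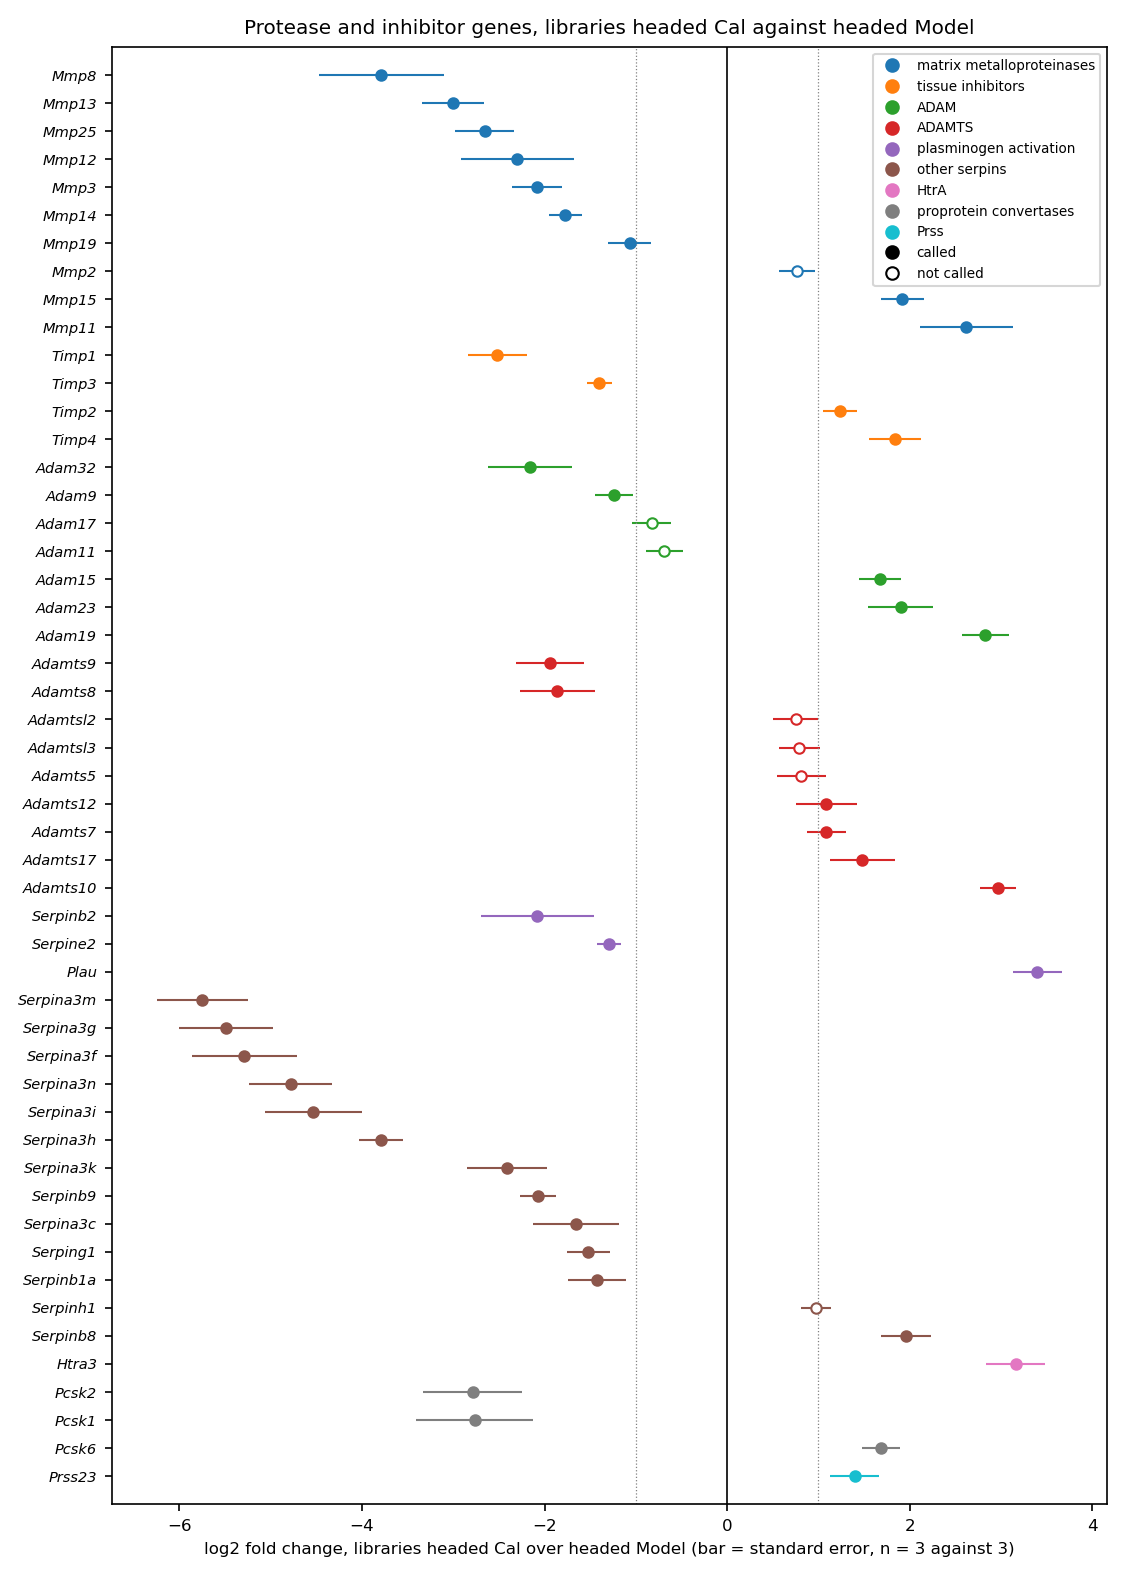
Log2 fold change of each of the 51 members listed in the Cal and Model table, Cal-headed over Model-headed libraries (n = 3 against 3), with standard errors as bars, coloured by role and filled where called. Dotted lines mark log2 fold changes of -1 and 1, Serpina3 genes reach the lowest values and Plau the highest (3.40), and the authors' mean columns would reverse every sign.

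Among the 10 listed metalloproteinases, 7 were called lower and 2 called higher in the Cal-headed libraries, with a median log2 fold change of -1.93. Of all listed genes, 31.6% were called lower and 28.4% higher. Mmp13, or collagenase 3, cleaves fibrillar collagen and had the highest level per kilobase of them in the Model-headed libraries. It stood at 2727, 4221 and 1648 normalized counts in the Model-headed libraries and at 327, 267 and 418 in the Cal-headed ones (log2 fold change -3.01, SE 0.34, adjusted p = 0.00038). The groups were far apart, although the Model-headed libraries differed among themselves by more than the Cal-headed ones. Mmp8, the collagenase of neutrophil granules, was at 82.1, 98.8 and 35.5 against 0.922, 10.3 and 4.27 (log2 fold change -3.79, SE 0.69, adjusted p = 0.0021). The Cal-headed libraries were thus near the detection limit for Mmp8, with all Model-headed libraries well above it.

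Mmp3, or stromelysin 1, degrades proteoglycans and activates procollagenases. Its values were 709.5, 617 and 435 in the Model-headed and 189, 107 and 122 in the Cal-headed libraries (log2 fold change -2.08, SE 0.27, adjusted p = 0.000656). Mmp14, the membrane-anchored enzyme that activates pro-Mmp2, was at 1197, 1543 and 1464 against 342, 482 and 409.9 (log2 fold change -1.77, SE 0.18, adjusted p = 0.000277). Mmp14 was tight within each group, and the groups were separated by a wide gap. Mmp25, another membrane-anchored enzyme found on leukocytes, had a log2 fold change of -2.66 (SE 0.32, adjusted p = 0.000492). Mmp12, the macrophage elastase, had one of -2.30 (SE 0.62, adjusted p = 0.00935). Mmp19 was called at -1.07, a call that was lost after median-ratio scaling (-0.78), with a pseudocount of 10 (-0.92), without Model 1 (-0.97) and without Cal 2 (-0.99).

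Mmp11 and Mmp15 went the other way. Mmp11, or stromelysin 3, was at 5.400, 6.098 and 23.00 in the Model-headed libraries and 54.4, 67.6 and 65.8 in the Cal-headed ones (log2 fold change 2.62, SE 0.51, adjusted p = 0.00278). Model 3 was the highest of its group for Mmp11 and still below every Cal-headed library. The membrane-anchored Mmp15 was at 401, 402 and 718 against 1926, 1714 and 1898 (log2 fold change 1.92, SE 0.24, adjusted p = 0.000552). Mmp2, or gelatinase A, was not called at a log2 fold change of 0.77 (adjusted p = 0.00738), with 711, 824 and 681 against 1280.3, 977 and 1575 normalized counts. It passed the fold limit after quantile normalization (1.21) and median-ratio scaling (1.06). No other gene with an Mmp symbol was listed in the first table, and Mmp28 was listed only in the table with sham.

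Scaled to gene length, the make-up of the metalloproteinase pool differed between the groups. Mmp13 made up 51.3% ± 10.1 (SD, n = 3) of the summed normalized count per kilobase of the 10 genes in the Model-headed libraries and 12.1% ± 1.28 in the Cal-headed ones. Mmp2 and Mmp15 led in the Cal-headed libraries with 36.4% ± 4.02 and 33.4% ± 2.61, and held 11.2% ± 2.05 and 5.17% ± 3.23 in the Model-headed ones. Mmp3 held 16.4% ± 3.32 in the Model-headed and 7.51% ± 2.14 in the Cal-headed libraries. These shares do not depend on the size factors, because each is taken within a library.

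Mmp13, Mmp12, Mmp3 and Mmp8 lie in 1 cluster in the coordinates of the tables, which are mouse coordinates of an unnamed build, at chr9:7272514-7568485. All 4 were called lower in the Cal-headed libraries. Rat sequences of the 250 bases before their start sites are shown because these genes were called in the same direction and lie together. They come from RefSeq on the GRCr8 build, on the plus strand, at chr8:12782579-12782828, chr8:12866402-12866651, chr8:12925031-12925280 and chr8:13008640-13008889. Capitals mark matches to the AP-1 motif TGANTCA, searched on both strands, and to TATAAA on the gene's strand.
Mmp13: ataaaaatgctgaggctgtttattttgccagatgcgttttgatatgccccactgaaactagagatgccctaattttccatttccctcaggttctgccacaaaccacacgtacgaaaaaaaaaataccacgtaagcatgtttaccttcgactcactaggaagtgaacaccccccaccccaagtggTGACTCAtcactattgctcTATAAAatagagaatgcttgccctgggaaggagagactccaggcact
Mmp12: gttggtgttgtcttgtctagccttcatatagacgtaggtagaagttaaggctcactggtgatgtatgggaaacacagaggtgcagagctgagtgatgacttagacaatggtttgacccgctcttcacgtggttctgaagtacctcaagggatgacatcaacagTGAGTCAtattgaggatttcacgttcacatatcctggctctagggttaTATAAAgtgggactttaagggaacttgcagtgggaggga
Mmp3: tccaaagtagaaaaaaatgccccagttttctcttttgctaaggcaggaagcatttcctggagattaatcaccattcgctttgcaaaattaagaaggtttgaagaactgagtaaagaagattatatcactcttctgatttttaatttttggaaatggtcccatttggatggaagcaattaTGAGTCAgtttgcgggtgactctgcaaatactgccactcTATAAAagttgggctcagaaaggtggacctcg
Mmp8: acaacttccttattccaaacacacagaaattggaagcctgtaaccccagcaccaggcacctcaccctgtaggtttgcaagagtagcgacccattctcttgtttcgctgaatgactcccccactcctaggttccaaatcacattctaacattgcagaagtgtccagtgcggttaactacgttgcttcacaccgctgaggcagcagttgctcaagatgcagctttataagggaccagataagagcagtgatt
The AP-1 match began 66 bases before the start of Mmp13, 87 before that of Mmp12 and 71 before that of Mmp3, and TATAAA began 47, 39 and 32 bases before. Neither motif was found in the window of Mmp8. A promoter was given for 39 of the 61 members, and 7 of these (17.9%) held the AP-1 motif, against 6.36% of 27457 rat promoters of the same length. The 7 were Mmp13, Mmp12, Mmp3, Serpinb2, Adam19, Plaur and Tfpi2. AP-1 was in 4 of the 15 members with a promoter that were called lower (26.7%) and in 1 of the 13 called higher (7.69%). Mmp13, Mmp12 and Mmp3, among these 4, are related neighbours in 1 cluster and may not count as independent promoters. TATAAA stood in 6 of 39 (15.4%) against 8.38%. The STAT motif TTCNNNGAA was in 3 of 39 (7.69%) against 7.52%, among them Serpina3n and Mmp8. A loose NF-kB motif, a short run of G and a shorter run of C at a fixed spacing, searched on both strands, was in 28 of 39 (71.8%) against 43.5%, in 9 of the 15 members with a promoter that were called lower (60.0%) and in 11 of the 13 called higher (84.6%) in the Cal-headed than in the Model-headed libraries. The part of base composition in these shares was not tested. These are letter matches only.

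All 4 tissue inhibitors were listed, and they split evenly. Timp1, which is induced by inflammatory cytokines, was at 714, 879 and 1254 in the Model-headed and 107, 237 and 162 in the Cal-headed libraries (log2 fold change -2.52, SE 0.32, adjusted p = 0.00062). Timp3, the inhibitor bound to the matrix that also blocks ADAM proteases, was at 10003, 10304 and 9485 against 3712, 3441 and 4171 (log2 fold change -1.40, SE 0.14, adjusted p = 0.000281). The call on Timp3 ended after quantile normalization, which left a log2 fold change of -0.68. Timp1 was called under every alternative tried.

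Timp2 and Timp4 were called higher in the Cal-headed libraries. Timp2, which together with Mmp14 forms the complex that activates pro-Mmp2, was at 2354, 2087 and 2498 in the Cal-headed and 841, 876 and 1268 in the Model-headed libraries (log2 fold change 1.24, SE 0.19, adjusted p = 0.00105). Timp4, which was the least abundant of the 4 per kilobase in both groups, was at 359.7, 575 and 489 against 145, 89.02 and 168 (log2 fold change 1.84, SE 0.28, adjusted p = 0.00114). Per kilobase, Timp2 was 44.8% ± 4.104 (SD, n = 3) of the 4 inhibitors in the Cal-headed libraries and 9.87% ± 1.098 in the Model-headed ones. Timp1 was 14.3% ± 5.39 against 41.1% ± 6.52, Timp3 34.9% ± 2.601 against 48.2% ± 7.48, and Timp4 6.05% ± 1.24 against 0.886% ± 0.249. None of these shares overlapped between the groups.

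**Figure D2:**
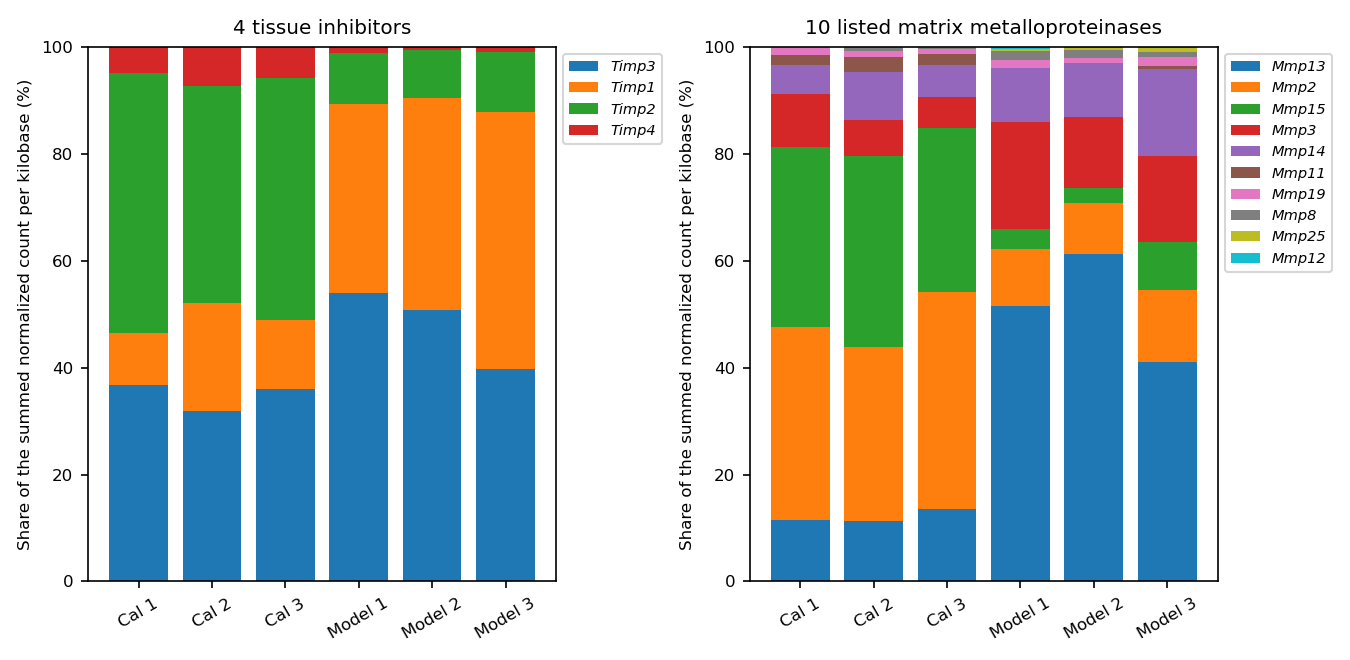
Share of each gene (%) in the summed normalized count per kilobase, in each Cal-headed and Model-headed library, for the 4 tissue inhibitors and the 10 listed metalloproteinases. Timp2 is the largest inhibitor share in the Cal-headed libraries (44.8% on average) and Timp3 with Timp1 makes up most of the pool in the Model-headed libraries (48.2% and 41.1%), while Mmp13 averages 51.3% of the metalloproteinases in the Model-headed libraries.

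Within a library, the ratio of Mmp14 to Timp2 reads was 1.42, 1.76 and 1.15 in the Model-headed and 0.145, 0.231 and 0.164 in the Cal-headed libraries, an 8.06-fold difference of the geometric means. That of Timp1 to Timp2 was 0.849, 1.004 and 0.989 against 0.0455, 0.114 and 0.06496. For Mmp13 to Timp1 the groups overlapped, with 3.82, 4.800 and 1.31 against 3.05, 1.12 and 2.57, so the collagenase and this inhibitor were lower in the Cal-headed libraries by amounts that were not separated. Ratios are given as descriptions, since an exact permutation test of 3 against 3 cannot go below p = 0.1.

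Of the 7 listed ADAM proteases, 3 were called higher and 2 lower in the Cal-headed libraries, where 60.1% of all listed genes were called. Adam19, or meltrin beta, which acts in heart development, was at 435, 453 and 448 in the Cal-headed and 89.6, 45.1 and 58.5 in the Model-headed libraries (log2 fold change 2.83, SE 0.26, adjusted p = 0.00023). The Cal-headed libraries lay close together, and the highest Model-headed library was far below them. Adam15 and the catalytically inactive Adam23 were called at 1.67 and 1.90 (adjusted p = 0.00083 and 0.00238). Adam9, the family member with the highest level per kilobase, was at 2330.4, 2688 and 1608 against 826, 1027 and 895 (log2 fold change -1.24, SE 0.21, adjusted p = 0.00157), and its call ended after quantile normalization (-0.75) and median-ratio scaling (-0.94). Adam32, known mainly from testis, was called lower on values of at most 11.9. Adam17, the sheddase of Tnf, was not called at -0.82 (adjusted p = 0.00802). It reached -1.07 without Model 3, and after quantile normalization it was at -0.34 with an adjusted p of 0.139. Adam11 was not called either (-0.69).

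The 9 ADAMTS and ADAMTS-like genes had a median log2 fold change of 0.81, with 4 called higher, 2 lower and 3 not called. The number called higher was 7 after median-ratio scaling and 2 with a pseudocount of 10. Adamts10, which interacts with fibrillin microfibrils, was at 229.7, 206 and 227 in the Cal-headed and 30.2, 24.4 and 27.8 in the Model-headed libraries (log2 fold change 2.96, SE 0.20, adjusted p = 0.0001), with tight values in both groups. Adamts17 was called at 1.48 (adjusted p = 0.00618) on a mean of 19.5 ± 5.797 (SD) normalized counts in the Cal-headed libraries. Adamts7 and Adamts12, which cut cartilage oligomeric matrix protein, were each called at 1.09. That of Adamts7 was lost without Cal 1 (0.98), and that of Adamts12 without Model 3 (0.76), without Cal 3 (0.99), after quantile normalization (0.89) and with a pseudocount of 10 (0.91).

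Adamts9 and Adamts8, proteases with antiangiogenic activity, were called lower in the Cal-headed libraries. Adamts9 was at 2976, 4383 and 2864 in the Model-headed and 497, 1453 and 911 in the Cal-headed libraries (log2 fold change -1.94, SE 0.37, adjusted p = 0.00263). Adamts8 was at 105, 255 and 263 against 36.9, 73.2 and 52.1 (log2 fold change -1.86, SE 0.41, adjusted p = 0.00454). The aggrecanase Adamts5 was not called, at 279, 186 and 266 in the Cal-headed and 183, 137 and 101 in the Model-headed libraries (log2 fold change 0.81, SE 0.27, adjusted p = 0.019), and reached 1.02 without Model 1 and 1.11 after median-ratio scaling. Adamtsl2 and Adamtsl3, which lack the protease domain, were not called at 0.75 and 0.79, and passed the fold limit after median-ratio scaling (1.05 and 1.08).

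In the plasminogen system, the activator Plau was called higher in the Cal-headed libraries and the inhibitors Serpine2 and Serpinb2 were called lower. Plau, or urokinase, the activator that works at the cell surface, was 10.9-fold higher by group means in the Cal-headed libraries, at 181, 182 and 150.3 against 11.9, 20.7 and 14.4 in the Model-headed ones (log2 fold change 3.40, SE 0.27, adjusted p = 0.000158). Its identifier in the tables is ENSMUSG00000021822, at chr14:20836660-20843385 in the mouse coordinates. Serpine2, or protease nexin 1, which blocks thrombin and urokinase, was at 1394, 1449 and 1179.9 in the Model-headed and 533, 530.3 and 571 in the Cal-headed libraries (log2 fold change -1.29, SE 0.13, adjusted p = 0.000306). Its call ended after quantile normalization (-0.89) and median-ratio scaling (-0.99). Serpinb2, or plasminogen activator inhibitor 2, was low and variable, at 56.2, 143 and 29.7 against 7.38, 23.5 and 15.4 (log2 fold change -2.08, SE 0.62, adjusted p = 0.0132).

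Serpins outside the plasminogen system numbered 13, of which 11 were called lower and 1 higher in the Cal-headed libraries. Serpinb9, the inhibitor of granzyme B, was at 1283, 1587 and 1026 in the Model-headed and 339, 258 and 321 in the Cal-headed libraries (log2 fold change -2.07, SE 0.20, adjusted p = 0.000251). Serping1, the C1 inhibitor of complement, was called at -1.52 (SE 0.24, adjusted p = 0.00122), and this ended after quantile normalization (-0.93). Serpinb1a, an inhibitor of neutrophil elastase, was called at -1.42 (adjusted p = 0.00465). Serpinb8, which inhibits furin, was the serpin called higher, at 112, 71.3 and 108 in the Cal-headed against 27.00, 25.6 and 19.2 in the Model-headed libraries (log2 fold change 1.96, SE 0.28, adjusted p = 0.000851). Serpinh1, the collagen chaperone Hsp47 and not a protease inhibitor, was not called at 5835, 5683 and 6188 against 3632, 2976 and 2506 (log2 fold change 0.97, SE 0.17, adjusted p = 0.00171). It passed the fold limit without Model 1 (1.11), without Cal 2 (1.000), and after quantile normalization (1.68) or median-ratio scaling (1.27).

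The 8 Serpina3 genes, relatives of the human acute-phase inhibitor alpha-1-antichymotrypsin, included the 6 largest falls among the members with higher-group means of at least 20. They lie together at chr12:104146382-104414329 in the mouse coordinates. Serpina3n, the highest per kilobase, was at 7977, 7841 and 7134 in the Model-headed and 123, 484 and 359 in the Cal-headed libraries (log2 fold change -4.78, SE 0.45, adjusted p = 0.00025). Serpina3f was at 3175, 4971 and 2251 against 32.3, 166 and 107 (log2 fold change -5.29, SE 0.58, adjusted p = 0.000352). Serpina3g was at 2204, 2016 and 1386 against 15.7, 56.3 and 70.03 (log2 fold change -5.49, SE 0.52, adjusted p = 0.000244). Every Model-headed library was far above every Cal-headed library for these genes, and Cal 1 was the lowest library for all 3.

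Serpina3i was at 253, 323 and 219 in the Model-headed and 3.69, 14.1 and 19.6 in the Cal-headed libraries (log2 fold change -4.53, SE 0.53, adjusted p = 0.000445). Serpina3h was at 138, 161 and 136 against 9.22, 8.45 and 11.1 (log2 fold change -3.79, SE 0.24, adjusted p = 8.93e-05). Serpina3m had 100.4, 115 and 95.8 normalized counts in the Model-headed libraries and 0.922, 2.82 and 0 in the Cal-headed ones, which rest on 4 reads in all. Its ratio was 85.4, with a counting interval from 33.0 to 316 (exact, 95%, counting error only). Serpina3k had no read in any Cal-headed library and 4.32, 4.88 and 3.83 normalized counts in the Model-headed ones, so it was at least 4.76-fold lower against a floor of 3 counts over the group. Serpina3c was called at -1.65 (adjusted p = 0.0113).

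Near-identical copies make the split between these entries uncertain, and the annotated span of Serpina3m holds all of Serpina3k. The symbols Serpina3f, Serpina3g, Serpina3h, Serpina3i and Serpina3k had no match in the rat gene table, whereas 56 of the 61 members matched. Summed over the 8 entries, the Serpina3 level was 13870, 15468 and 11276 in the Model-headed and 190.0, 744 and 579 in the Cal-headed libraries, a 26.8-fold difference of means. Cal 1 was the lowest Cal-headed library in 6 of the 8 entries, beside 34.8% of all listed genes. These 6 include Serpina3k, a tie with no read in any Cal-headed library.

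Among the remaining proteases, Htra3, a secreted serine protease that antagonises TGF-beta signalling, was at 1398, 822 and 1493 in the Cal-headed and 88.6, 149 and 178 in the Model-headed libraries (log2 fold change 3.16, SE 0.32, adjusted p = 0.000289). Pcsk6, the convertase that activates the precursor of corin in heart, was at 1555, 1119.8 and 1458 against 327, 472 and 496 (log2 fold change 1.68, SE 0.21, adjusted p = 0.000558). Prss23 was called at 1.40 (adjusted p = 0.00266). The neuroendocrine convertases were low. Pcsk1 was at 16.2, 80.5 and 21.1 in the Model-headed and 1.84, 4.69 and 5.12 in the Cal-headed libraries (log2 fold change -2.76, SE 0.64, adjusted p = 0.0053). Pcsk2 had 24 reads against 1 read, a ratio of 28.6 with a counting interval from 4.66 to 1175.

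Other genes of the protease pathways were counted from lists of their substrates and regulators. Of 15 cathepsin and legumain genes, 4 were listed, and the collagen-degrading Ctsk was called higher in the Cal-headed libraries (1.19), while Ctsl was not called at -0.72. Of 21 other inhibitors and surface regulators 5 were listed, 2 called higher and 3 lower, led by the lipoprotein receptor Lrp8 (-4.06) and Itih4 (-2.62). Coagulation and fibrinolysis gave 11 of 26, with 5 called higher and 4 lower. Coagulation factor F10 was at 39.02 to 70.9 in the Model-headed and 0 to 4.69 in the Cal-headed libraries, and the fibrinogen chain Fgg was at 6.098 to 11.5 with no read in any Cal-headed library.

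Substrates shed by ADAM proteases gave 10 of 17, with 2 called higher and 5 lower. The 5 called lower were Ereg (-2.53), Il6ra (-2.13), Selp (-1.81), Cd44 (-1.80) and Hbegf (-1.51), and the 2 called higher were Areg and Tnf. The growth factor Areg was at 22.5 to 53.5 in the Cal-headed and 0 to 1.92 in the Model-headed libraries. The cytokine Tnf, which Adam17 sheds, was at 416 to 757 against 87.2 to 163 (log2 fold change 2.04, SE 0.31, adjusted p = 0.00115). Of 14 ADAMTS substrates 7 were listed, 3 called higher and 1 lower. Versican (Vcan), the proteoglycan cut by several ADAMTS proteases, had a log2 fold change of -2.40 and the thrombospondin Thbs2 had 1.75. Col1a1, a chain of fibrillar collagen I, was at 2298 to 2764 in the Cal-headed and 891 to 1217 in the Model-headed libraries. Other peptidases gave 9 of 29, with 3 called higher and 5 lower, led by granzyme B (Gzmb, -3.63) and Pappa, which cleaves growth factor binding proteins (-3.20).

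Markers of several cell types also differed between these groups, as did most listed genes (60.1% called). Of 7 neutrophil markers 6 were listed and all 6 were called lower in the Cal-headed libraries, with summed levels of 76.6 to 243 against 852 to 1016 in the Model-headed ones. Mpo had no read in any Cal-headed library, and Cxcr2 was at 0.922 to 3.42 there. Of 7 endothelial markers 6 were listed, 4 called higher and 2 not called, with sums of 8964 to 11644 in the Cal-headed and 3638 to 4619.8 in the Model-headed libraries. Macrophage markers gave 5 of 7, with 2 called higher and 2 lower (sums 4799 to 5226 against 1794 to 2723). Csf1r (1.56) and Lyz2 (1.26) were higher, and Itgam (-1.83) and Ccr2 (-1.56) lower. Lyz2 alone averaged 3930 against 1674. Fibroblast markers gave 4 of 8, with 2 called higher (sums 17378 to 21126 against 15696 to 22941). These were Col1a1 (1.38) and Col1a2 (1.01). Col3a1 (0.85) and Dcn (-0.68) were not called, and Dcn alone averaged 8610 against 13976. No cardiomyocyte or B cell marker was listed in this table. The 2 listed smooth muscle markers were not called, and 1 of 6 T and NK cell, 1 of 5 mast cell and 2 of 4 platelet markers were listed. Of these, Gzma (-2.49), Kit (-1.26) and the platelet marker Itga2b (-1.27) were called lower and the platelet marker Pf4 (1.04) higher. The part of these cell types in the protease and inhibitor values was not tested.

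The table with sham asks which members differed between the Cal-headed and the Con-headed libraries. By its mean columns and the authors' label it is the comparison of model with sham. Of its 25 members, 12 were called higher and 1 called lower in the Cal-headed libraries, and 12 passed the adjusted p without reaching the fold limit. Over all 2458 listed genes, 29.0% were called, 18.0% higher and 10.9% lower, and 99.8% passed the adjusted p. Counts of lists in this table likewise stand beside these shares, untested. The members' median log2 fold change was 0.83, beside 0.37 for all listed genes, and the latter was -0.04 after quantile normalization and 0.09 after median-ratio scaling. Groups did not overlap for 22 of 25 members, and for 97.4% of all listed genes. The genes called higher were Adamts4, Adamts1, Adamts8, the urokinase receptor Plaur, Serpinb2, Mmp13, Timp1, Tfpi2 and 4 Serpina3 genes. This table shares the Cal-headed libraries with the first, so the comparisons are not independent.

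**Figure D3:**
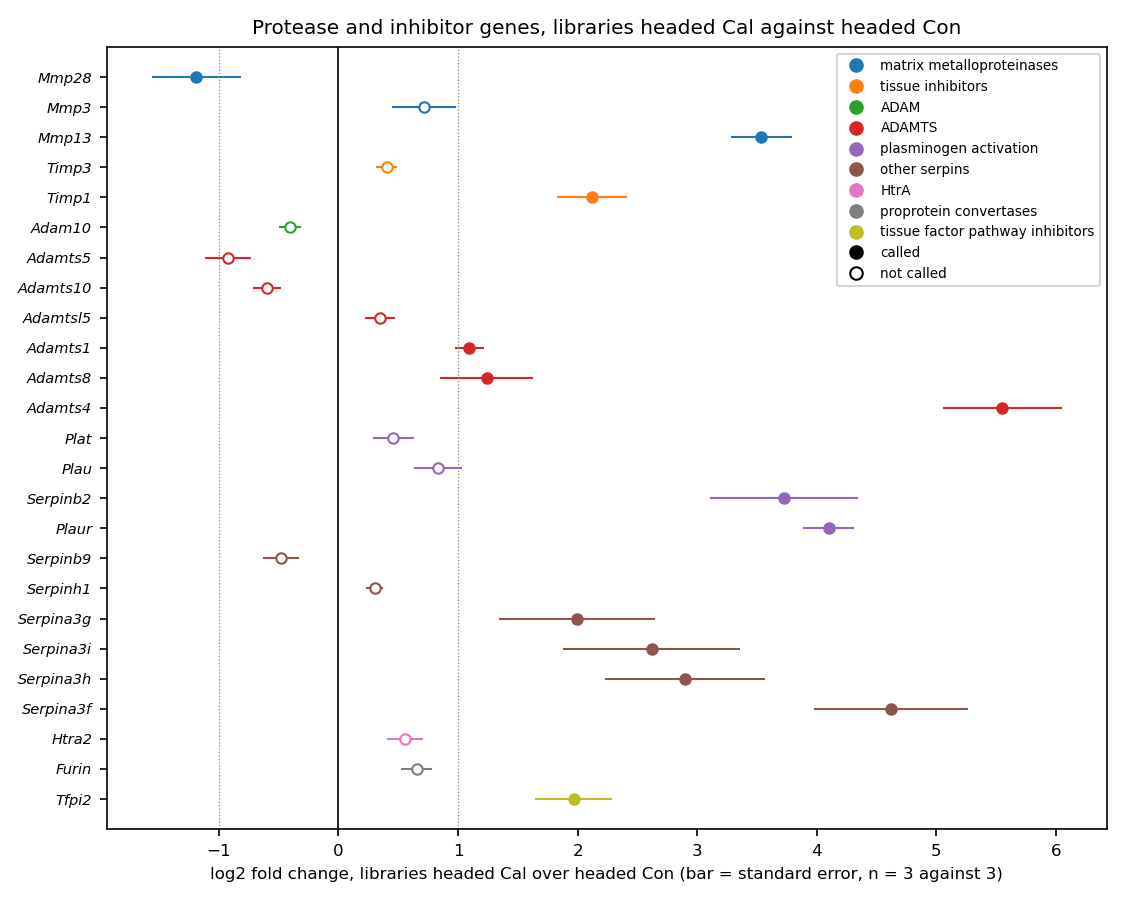
Log2 fold change of each of the 25 members listed in the table with sham, Cal-headed over Con-headed libraries (n = 3 against 3), with standard errors as bars, coloured by role and filled where called. Adamts4 is highest (5.55) and Mmp28 is the only member called lower (-1.19), while the uncalled positive values of Timp3, Serpinh1 and Adamtsl5 turn negative after quantile normalization, and the mean columns name the Cal-headed libraries Model.

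Adamts4, an aggrecanase that also cuts versican, had the largest difference, at 565, 2314 and 1341 in the Cal-headed and 39.1, 23.6 and 16.2 in the Con-headed libraries (log2 fold change 5.55, SE 0.49, adjusted p = 4.59e-05). Cal 1 was the lowest Cal-headed library, and still far above every Con-headed library. Adamts1, the ADAMTS gene with the highest mean per kilobase, was at 2081, 2692 and 2319.5 against 1248, 1073 and 994 (log2 fold change 1.10, SE 0.12, adjusted p = 0.000187). Its call was lost after quantile normalization (0.65) and median-ratio scaling (0.81), and narrowly without Cal 2 (0.998). Adamts8 was at 41.3, 82.1 and 58.1 against 41.00, 19.6 and 17.2 (log2 fold change 1.24, SE 0.39, adjusted p = 0.0133), and was under the fold limit without Cal 2 (0.99), after median-ratio scaling (0.96) and with a pseudocount of 10 (0.99). Adamts5 and Adamts10 were not called, at 312, 208 and 296 against 489, 434 and 622 (log2 fold change -0.92, adjusted p = 0.00316) and 257, 230.5 and 253 against 399, 374 and 350.2 (log2 fold change -0.60, adjusted p = 0.00237). Adamts5 passed the limit after quantile normalization (-1.21) and median-ratio scaling (-1.21), without Cal 1 (-1.03) and without Con 2 (-1.04).

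In the plasminogen system, 2 of 4 listed members were called higher in the Cal-headed libraries. Plaur, which holds urokinase at the cell surface, was at 1083, 1792 and 1572 against 103, 76.6 and 73.9 in the Con-headed libraries (log2 fold change 4.10, SE 0.21, adjusted p = 2.42e-06). The replicates of Plaur lay close together beside the gap between the groups. Serpinb2 was at 8.25, 26.3 and 17.1 in the Cal-headed libraries and had 1 read over the Con-headed ones, a ratio of 52.9 with a counting interval from 9.07 to 2129. Plau was not called at 202, 204 and 168 against 139, 99.2 and 88.1 (log2 fold change 0.83, adjusted p = 0.0053), and reached 1.02 without Con 1. Plat, the tissue-type activator, was not called at 0.46 and its groups overlapped.

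Mmp13 was at 365, 299 and 466 in the Cal-headed and 24.2, 43.2 and 28.3 in the Con-headed libraries (log2 fold change 3.54, SE 0.25, adjusted p = 1.38e-05). Mmp3 was not called, at 211, 120.0 and 136 against 112, 103 and 66.8 (log2 fold change 0.72, adjusted p = 0.0293), with the lowest Cal-headed library just above the highest Con-headed library. Mmp28, or epilysin, was the member called lower, at 59.8, 22.1 and 59.04 against 103, 86.4 and 108 (log2 fold change -1.19, SE 0.37, adjusted p = 0.0132), and without Cal 2 its value was -0.73. Timp1 was at 119.7, 266 and 181 against 35.4, 38.3 and 48.6 (log2 fold change 2.12, SE 0.29, adjusted p = 0.000519). Timp3 was not called, at 4151, 3858 and 4650.4 against 3256, 3081 and 3218 (log2 fold change 0.40, adjusted p = 0.00332), and its sign turned after quantile normalization (-0.07).

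Tfpi2, a broad inhibitor of serine proteases in the matrix, was at 58.8, 143 and 91.4 in the Cal-headed and 22.4, 20.6 and 25.3 in the Con-headed libraries (log2 fold change 1.97, SE 0.32, adjusted p = 0.00125). Serpina3f was at 36.1, 186 and 119 against 4.66, 3.93 and 1.01 (log2 fold change 4.62, SE 0.64, adjusted p = 0.000549). Serpina3g was at 17.5, 63.1 and 78.1 against 9.32, 22.6 and 5.06 (log2 fold change 1.998, SE 0.65, adjusted p = 0.016), its groups overlapped, and its adjusted p was 0.0506 without Cal 2, 0.0628 without Cal 3 and 0.059 without Con 3. Serpina3h and Serpina3i had 10.3, 9.47 and 12.4 and 4.13, 15.8 and 21.9 normalized counts in the Cal-headed libraries, against 3 and 4 reads over the Con-headed ones. Their ratios were 11.1 (counting interval 3.46 to 56.4) and 10.9 (3.95 to 41.8). The call on Serpina3h was lost with a pseudocount of 10 (log2 fold change 0.93), and that on Serpina3i after quantile normalization (1.58, adjusted p = 0.145). The 4 entries summed to 68.1, 275 and 231 in the Cal-headed and 18.6, 28.5 and 6.07 in the Con-headed libraries, with the same doubt about the split between copies.

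Members that were not called in the table with sham included Furin, the ubiquitous convertase that activates membrane-anchored metalloproteinases (0.65, adjusted p = 0.00246), the mitochondrial protease Htra2 (0.56, adjusted p = 0.00851) and the sheddase Adam10 (-0.41, adjusted p = 0.00437). Serpinb9 was at 379, 289 and 358 in the Cal-headed and 439.8, 556 and 435 in the Con-headed libraries (log2 fold change -0.48, adjusted p = 0.0135). Serpinh1 was at 6526, 6372 and 6899 against 5728, 5337 and 5009 (log2 fold change 0.30, adjusted p = 0.00592), and its sign turned after quantile normalization (-0.14). Adamtsl5 had overlapping groups at 0.35, with a sign that also turned (-0.05).

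Substrates of ADAM proteases in this table numbered 9 of 17, with 7 called higher and 2 not called. The endothelial adhesion molecules Icam1 and Selp led, at 18106 to 24992 and 612 to 1448 in the Cal-headed against 213 to 402 and 11.8 to 21.3 in the Con-headed libraries. Coagulation genes gave 7 of 26, with Thbs1 called higher (2.85) and the thrombin receptor F2rl3 called lower (-2.01). The 2 listed cathepsins (Ctsd 0.36, Ctsf 0.38), 3 ADAMTS substrates (led by Lum -0.67 and Thbs2 -0.65) and 3 other peptidases (led by Fap -0.96 and Anpep -0.72) were not called, and none of the 21 other inhibitors was listed.

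The cell type markers of this table were measured beside these values. The cardiomyocyte genes Myh6 and Ryr2, 2 of 6, were not called, and their sum was 360759 to 362832 in the Cal-headed and 267192 to 338084 in the Con-headed libraries, so heart muscle transcripts were abundant throughout. The neutrophil markers S100a8 and S100a9, 2 of 7, were called higher in the Cal-headed libraries (sums 48.5 to 183 against 13.05 to 28.5). All 6 listed endothelial markers of 7 had negative log2 fold changes and 2 were called lower (sums 12534 to 14735 against 20448 to 23595), as did all 4 listed fibroblast markers of 8, with 1 called (sums 9549.6 to 12371 against 14389 to 16008). All 4 listed smooth muscle markers of 6 were negative and not called (sums 13894 to 15365.5 against 18882 to 22164.5). Macrophage markers Mrc1 and Ccr2, 2 of 7, were lower, with Ccr2 called (-2.11). Mast cell markers Cpa3 and Kit, 2 of 5, were lower, with Kit called (-1.04). The platelet marker Pf4 was not called at 0.41. No T and NK cell or B cell marker was listed. The part of these cell types in the members' values was not tested.

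For the 15 members listed in both tables, the Con-headed values were placed on the scale of the first table through the shared Cal-headed libraries (factor 0.894). The tables were normalized separately, so levels set across them carry no test. Mean levels ran from Con-headed through Cal-headed to Model-headed libraries in 10 members, namely Mmp13, Mmp3, Timp1, Timp3, Serpinb2, Adamts8, Serpina3f, Serpina3g, Serpina3h and Serpina3i. Adamts10 and Adamts5 ran the opposite way. Plau and Serpinh1 were highest in the Cal-headed and lowest in the Model-headed libraries. Serpinb9 was lowest in the Cal-headed and highest in the Model-headed libraries. Neighbouring groups in these orders overlapped only for Serpina3g, between the Con-headed and Cal-headed libraries, and for Adamts8 the highest Con-headed library (36.7) was just under the lowest Cal-headed library (36.9). Groups did not overlap in 98.2% of all genes listed in the first table and 97.4% in the table with sham. The orders were not counted over the 986 genes in both tables, so they are not shown to be particular to the members.

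**Figure D4:**
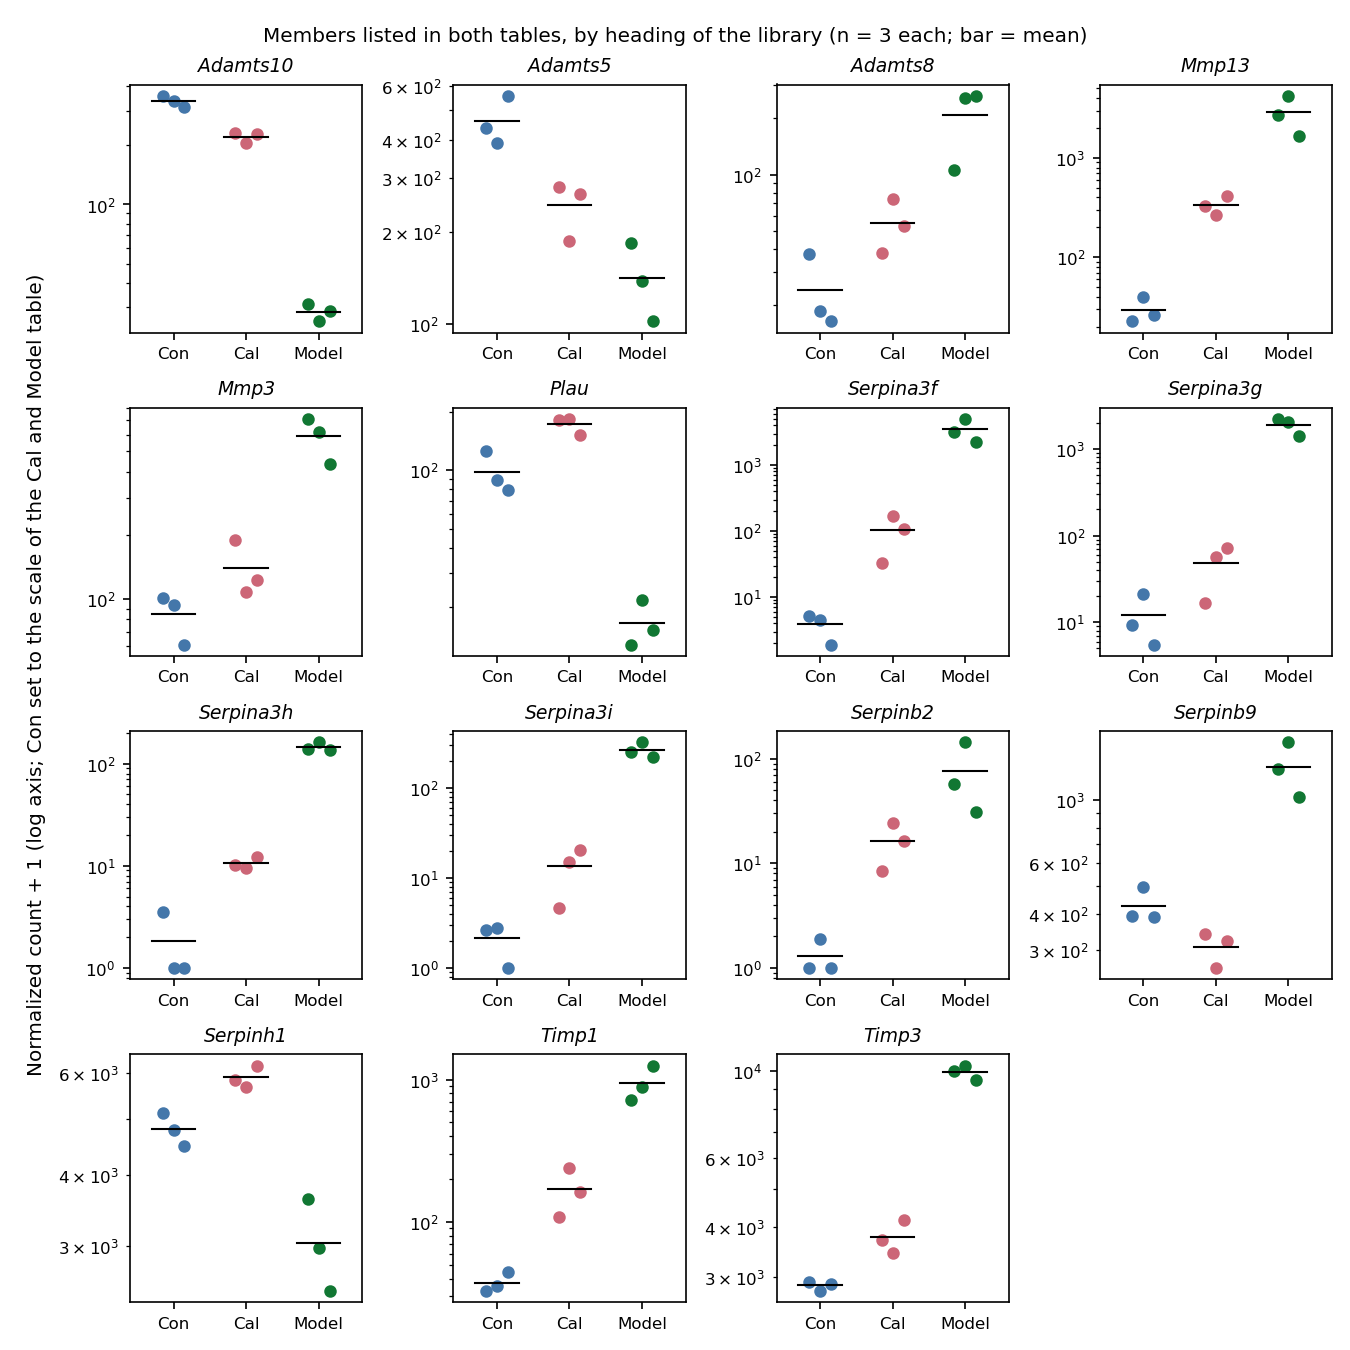
Normalized count + 1 (log axis) of the 15 members listed in both tables, in the 3 Con-headed, 3 Cal-headed and 3 Model-headed libraries, with the group mean as a bar and the Con-headed values placed on the scale of the Cal and Model table. Means run from Con through Cal to Model in 10 of 15 members (Mmp13 from 28.6 through 337 to 2865), and the Con and Cal order of Timp3 and Serpinh1 turns after quantile normalization. These orders were not counted over all genes in both tables.

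The steps between the 3 groups differed in size from gene to gene. For Mmp13 the Cal-headed libraries were 11.8-fold above the Con-headed, and the Model-headed 8.504-fold above the Cal-headed by group means. For Timp1 these steps were 4.63-fold and 5.62-fold, and for Timp3 1.32-fold and 2.63-fold. For Mmp3 they were 1.66-fold and 4.21-fold. Whether these steps differ between genes was not tested.

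Ratios of reads within a library need no size factor and can be set beside each other across all 9 libraries. Mmp13 reads per Timp3 read were 0.00744, 0.01403 and 0.00881 in the Con-headed libraries, 0.08797, 0.0775 and 0.1001 in the Cal-headed ones and 0.273, 0.4096 and 0.174 in the Model-headed ones. Timp1 reads per Timp3 read were 0.0109, 0.0124 and 0.0151 in the Con-headed, 0.0288, 0.06901 and 0.0389 in the Cal-headed and 0.0714, 0.0853 and 0.132 in the Model-headed libraries. Both ratios kept the 3 groups apart. Mmp13 reads per Timp1 read, by contrast, overlapped between neighbouring groups, with 0.684, 1.13 and 0.583 in the Con-headed libraries.

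**Figure D5:**
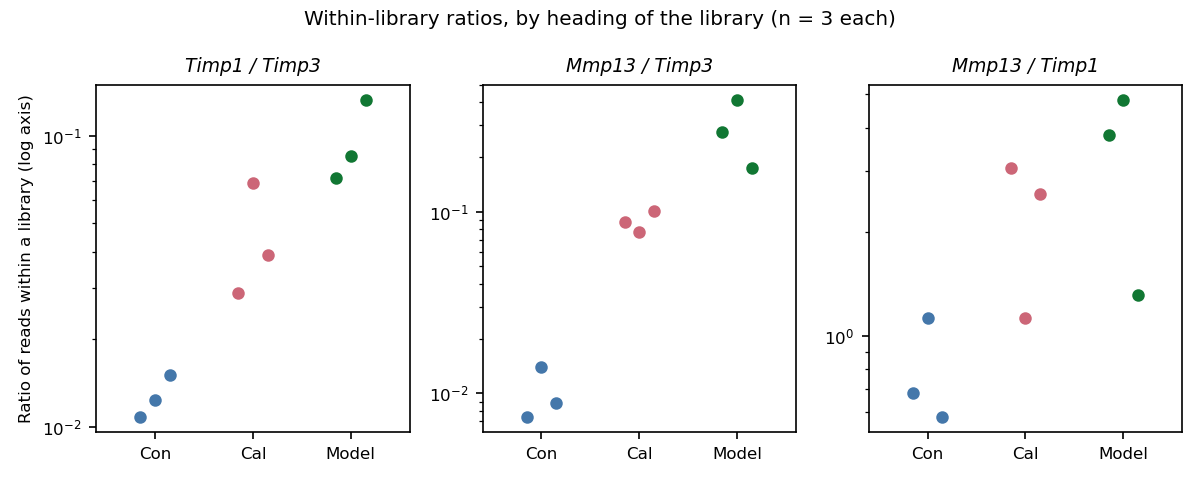
Ratio of reads within each library (log axis) for Timp1 to Timp3, Mmp13 to Timp3 and Mmp13 to Timp1, in the 3 Con-headed, 3 Cal-headed and 3 Model-headed libraries, each point a library. Timp1 to Timp3 lies between 0.0109 and 0.0151 in the Con-headed libraries and between 0.0714 and 0.132 in the Model-headed ones, while Mmp13 to Timp1 overlaps between groups.

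Within groups, libraries also differed. Model 3 was the lowest of the Model-headed libraries in 26 of 51 members, beside 37.2% of all listed genes, and among these were Mmp13, Mmp8, Mmp12 and Mmp3. Cal 3 was the lowest Cal-headed library in 3 of 51 members, beside 23.6% of listed genes. No 2 libraries of a group were duplicates, as their chi-square over the listed genes was 11.4 to 101 per degree of freedom.

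Several members lay next to each other in the mouse coordinates. Besides the Mmp and Serpina3 clusters, Serpinb1a and Serpinb9 were both called lower in the Cal-headed than in the Model-headed libraries, as were Adam32 and Adam9. Serpinb2 and Serpinb8, 99.1 kb apart from first start to last end, were called in opposite directions. Adamts1 and Adamts5 lie within 108 kb, and in the table with sham Adamts1 was called higher and Adamts5 was not called at -0.92.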

How the data were processed

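RNA-seq of 9 rat hearts was analysed, 3 libraries a group. Per the labels and the study's methods, polyadenylated RNA was sequenced on an Illumina instrument and tested with DESeq2 by the authors. The submitters' processing notes name Bowtie 0.12.2 and the mouse builds mm8 and mm9, whereas the methods name a rat reference. The deposited tables use mouse Ensembl identifiers and coordinates and name no build, and the counting tool and its use of strand are not given in the sources used here. The deposited signal is a read count divided by a size factor, computed by the authors per table, and reads were recovered whole in 100% of values (tolerance 0.01 reads). The authors also deposited group means, log2 fold changes and p-values of their own comparisons, which were not used except that the means were checked against the sample columns.

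The log2(normalized count + 1) values of each whole table were fitted with limma 3.58.1 in R 4.3.3 (trended prior variance), with Benjamini-Hochberg adjustment over the listed genes. For the planned contrast of model with sham, that table held sample columns headed Cal and Con, which were compared. The p-values measure the spread between 3 rats a group. The replicate numbers belong to different rats. Named genes were those listed in both tables, in each table up to 12 called rises and 12 called falls of largest size with groups that did not overlap and a higher-group mean of at least 20, and the highest member of each role group. Of the 62 genes the symbols gave, 1 is not reported here, and neither is 1 gene of the other lists, and counts leave both out. The members, lists, cell type markers and motifs were chosen with earlier results of these data known. Ratios within a library, and the motifs, were added after the data were seen. Ratios were taken between normalized counts of the same library, where the size factor cancels, so they equal ratios of reads. Promoters came from RefSeq (GRCr8). Alternatives were other pseudocounts (0.1 and 10), median-ratio scaling, quantile normalization, a minimum mean of 10, edgeR 4.0.16 and DESeq2 1.42.0 on recovered reads, a replicate block, no fold limit, an adjusted p under 0.01, and leaving out each library. The median-ratio and quantile scalings used only the listed genes, which were selected for a difference, so neither rests on a set of unchanged genes. Calls lost or signs turned after them show dependence on scaling only. On simulated data in which 200 genes had a log2 difference of 2, limma called 100% of them with 0 false calls for the first table (4288 genes), and 100% with 1 false call for the table with sham (2458 genes). The changed genes had means of at least 20, all genes shared the same dispersion, and the other genes were unchanged. The simulation therefore does not describe calls of low members, or tables that list only genes selected for a difference.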

Additional observations from a re-analysis of the deposited data

How the results depend on the processing

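Against the Model-headed libraries, the 16 members called higher and 28 called lower in the Cal-headed libraries became 21 and 25 after median-ratio scaling and 17 and 24 after quantile normalization. Across the other alternatives they ran from 14 to 21 and from 24 to 30, and from 15 to 18 and 27 to 29 when a library was left out. Of the 44 called members, 33 were called under every one of 14 alternatives, and none of the 51 changed sign. The 14 leave out the runs with no fold limit and with an adjusted p under 0.01. Among the 33, Serpinb2 (limma, adjusted p = 0.0132) and Serpina3c (0.0113) were not called at an adjusted p under 0.01. Calls lost in any of the 14 were those of Timp3, Serpine2, Serping1, Adam9, Adamts7, Mmp19, Pcsk2, Adamts12, Serpina3k, Adam32 and Adamts17, the last 3 and Pcsk2 with a pseudocount of 10. Calls gained in any of the 14 were those of Serpinh1, Adam17, Mmp2, Adamtsl2, Adamts5 and Adamtsl3. Against the Con-headed libraries, 12 were called higher and 1 lower, with 20 and 5 when no fold limit was set. The 1 lower member became 2 after quantile normalization, 2 after median-ratio scaling, and 0 at an adjusted p under 0.01, when 10 were called higher, and ranged from 0 to 2 when a library was left out. Leaving out a library gave 9 to 13 called higher. Of these 13 called members, 7 were called in every one of the 14 alternatives that fitted them. Adamts1, Serpina3g, Serpina3h, Serpina3i, Adamts8 and Mmp28 were not. Serpinb2, among the 7, was left out of the fit by the minimum mean of 10, so its call was not tried there. After quantile normalization, Timp3 (-0.066), Serpinh1 (-0.14) and Adamtsl5 (-0.046) changed sign there, none of them called and the cause was not tested. edgeR and DESeq2 on the recovered reads gave 16 and 28, and 12 and 1.

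The replicate numbers did not pair the libraries, since the correlations of same-numbered deviations from the group means ran from -0.12 to 0.11 in the first table and from -0.14 to -0.02 in the table with sham. With the replicate number as a block, 16 members were called higher and 28 lower, and 12 higher and 1 lower. Only reads on listed genes are known, so depth limits the low members most, such as Serpina3k, Pcsk2 and Mmp12.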
